A study of Mus musculus with 4 samples.

Results

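ERK feedback genes are transcribed when the MAP kinase ERK is active and their products act back on the pathway or on its transcriptional targets. The 10 genes described here, *Dusp6*, *Dusp4*, *Dusp5*, *Spry1*, *Spry2*, *Spry4*, *Spred1*, *Spred2*, *Etv4* and *Etv5*, were taken by symbol from the 23946 gene symbols of the deposited bulk RNA-seq tables. The set was chosen on the measured values of *Dusp6*, which was known from the same libraries to be low in one suture, so all values below are a description of the set and no test was made on it. The question was whether the other 9 genes followed *Dusp6*.

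RNA was measured in skeletal stem/progenitor cells sorted from wild type CD-1 mice at postnatal day 3 (pN3) from 3 fibrous joints of the skull, the coronal (COR), sagittal (SAG) and posterior frontal (PF) sutures, and from the growth plate of the tibia (GP), which served as reference. The PF suture is the one that later closes in the mouse, whereas SAG and COR stay patent. All 4 samples carried one immunophenotype, positive for CD51 and CD200 and negative for CD105, 6C3, Thy1.2, Thy1.1, Tie2, Ter119 and CD45, and animals were pooled, so that each tissue is 1 library with no replicate. The dissected suture tissue held osteogenic fronts, mesenchyme, dura mater and periosteum before sorting. No genotype, allele or treatment differed between the samples.

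Fibroblast growth factors and other ligands of receptor tyrosine kinases activate ERK through RAS, RAF and MEK, and in the skull this pathway is known for its part in osteoblast differentiation and suture closure. Cells that receive the signal transcribe brakes on it. The dual specificity phosphatases remove the activating phosphates from ERK, the Sprouty and Spred proteins act upstream at RAS and RAF, and the ETS factors of the *Etv4* and *Etv5* group are themselves transcribed downstream of FGF signaling. Transcript levels of these genes are commonly read as a sign of recent pathway output, but no phosphorylated ERK was measured here.

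Because the members were compared as transcripts, the letters just upstream of their start sites are shown for *Dusp6*, for *Dusp5*, and for *Spry1* and *Spry2*, 2 genes that did not follow *Dusp6*. The RefSeq promoter table on build GRCm38.p6 matched 7 of the 10 members with 8 promoters. Each run is the 250 bases before the annotated start, written 5′ to 3′ on the strand of the gene. Capitals mark CGGAA, which holds the core that ETS factors bind, on either strand, and the CArG box, the element bound by serum response factor. The positions are chr10:99262981-99263230 (plus strand) for *Dusp6*, chr19:53528895-53529144 (plus strand) for *Dusp5*, chr3:37639697-37639946 (plus strand) for *Spry1* and chr14:105896820-105897069 (minus strand) for *Spry2*.
Dusp6: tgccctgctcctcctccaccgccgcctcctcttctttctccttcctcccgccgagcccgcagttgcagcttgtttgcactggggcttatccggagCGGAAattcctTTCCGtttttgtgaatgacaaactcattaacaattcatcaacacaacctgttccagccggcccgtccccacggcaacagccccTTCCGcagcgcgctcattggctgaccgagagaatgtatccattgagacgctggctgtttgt
Dusp5: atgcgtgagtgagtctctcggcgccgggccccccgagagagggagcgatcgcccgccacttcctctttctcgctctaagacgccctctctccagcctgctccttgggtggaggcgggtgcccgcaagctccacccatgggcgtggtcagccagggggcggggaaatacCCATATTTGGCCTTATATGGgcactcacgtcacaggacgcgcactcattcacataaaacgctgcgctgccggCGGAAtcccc
Spry1: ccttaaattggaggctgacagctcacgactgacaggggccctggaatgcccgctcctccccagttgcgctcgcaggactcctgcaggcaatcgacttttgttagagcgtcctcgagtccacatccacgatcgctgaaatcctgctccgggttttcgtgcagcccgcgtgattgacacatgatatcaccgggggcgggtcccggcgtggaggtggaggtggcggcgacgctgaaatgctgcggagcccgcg
Spry2: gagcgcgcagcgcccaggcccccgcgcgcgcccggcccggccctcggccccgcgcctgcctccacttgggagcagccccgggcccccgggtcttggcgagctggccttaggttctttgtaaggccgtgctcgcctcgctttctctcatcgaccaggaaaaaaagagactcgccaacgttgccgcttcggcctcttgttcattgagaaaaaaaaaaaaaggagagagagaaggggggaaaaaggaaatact

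CGGAA was found 3 times upstream of *Dusp6*, 2 times upstream of *Spred2*, 1 time each upstream of *Dusp5* and *Spred1*, and 0 times upstream of *Spry1*, *Spry2* and both starts of *Etv5*. Of all 32544 promoters of the same length, 25.3% held CGGAA. The CArG box was found 2 times, side by side, upstream of *Dusp5*, and in none of the other 7 member promoters, against 1.48% of all promoters. TGANTCA, the AP-1 letters, was in none of the 8, against 6.73% of all promoters. The motifs overlap neither each other nor themselves in these windows, were chosen with the expression values known, and are a description of letters only. No match in 250 bases says nothing of elements elsewhere.

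Levels are given as FPKM, in which fragments are divided by transcript length and by library size, so that genes of different length can be set side by side. Ratios are differences of log2(FPKM + 1) for genes with at least 1 FPKM in 1 of the libraries compared, which understates the change of low genes, and 3-fold, 1.58 on this scale, is the size counted. With 1 library per tissue no spread between replicates exists, so the order of close levels cannot be read as a difference. In these bulk samples fewer cells that transcribe a gene and less RNA per cell cannot be told apart. The numbers of fragments given for some genes are approximate, and come from the smallest increment seen among low values.

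*Dusp6* encodes a cytoplasmic phosphatase specific for ERK and lies on mm9 chromosome 10, 98725865 to 98730122. It was at 2.26 FPKM in PF, 16.6 in COR, 24.8 in SAG and 24.4 in GP. PF stood alone at the low end, and SAG and GP were nearly level. The log2 ratio was -2.43 in PF against COR, -2.98 against SAG and -2.96 against GP, as against -0.55 for COR vs SAG. As listed, the level was 11.0-fold higher in SAG, 7.34-fold higher in COR and 10.8-fold higher in GP than in PF. About 108 fragments lay behind the PF value and 1592 to 2696 behind the others. *Dusp6* was higher than 57.5% of all genes within PF and higher than 80.9% to 85.8% of them within the other libraries. Against *Gapdh*, the glycolytic enzyme often used as a loading control, the *Dusp6* level was 0.803% in PF, 4.96% in COR, 6.10% in SAG and 6.27% in GP.

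The other phosphatases were also lowest in PF. *Dusp5*, which encodes a nuclear phosphatase of ERK (mm9 chromosome 19, 53603599 to 53616921), stood at 0.124 FPKM in PF, 2.32 in COR, 6.37 in SAG and 16.4 in GP. Its levels thus differed among the 3 higher libraries by more than those of *Dusp6*, with GP at the top. The log2 ratio was -1.56 in PF against COR, just short of 3-fold on this scale (-1.81 after GC correction), -2.71 against SAG and -3.96 against GP. As listed, without the added 1, *Dusp5* was 18.7-fold higher in COR than in PF. The PF level rests on about 5 fragments, and that of *Dusp4*, next, on about 14. *Dusp4*, which encodes a nuclear phosphatase of several MAP kinases (mm9 chromosome 8, 35870351 to 35882948), stood at 0.288 FPKM in PF, 1.23 in COR, 3.98 in SAG and 1.88 in GP. SAG was the highest library and COR was nearer to GP than to SAG. The log2 ratio of *Dusp4* was -0.79 in PF against COR, -1.95 against SAG and -1.16 against GP. The quotient of *Dusp6* to *Dusp4* within a library, which no scaling between libraries can change, was 7.84 in PF, 13.4 in COR, 6.23 in SAG and 13.0 in GP. The same quotient of *Dusp6* to *Dusp5* was 18.3, 7.16, 3.90 and 1.48.

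*Etv5* encodes a transcription factor of the ETS family and lies on mm9 chromosome 16, 22381382 to 22439792. It was at 1.90 FPKM in PF, 8.73 in COR, 11.8 in SAG and 9.49 in GP. This was the order of libraries seen for *Dusp6* and *Dusp4*, with PF well below 3 libraries that lay near each other. The log2 ratio was -1.75 in PF against COR, -2.14 against SAG and -1.86 against GP. The quotient of *Dusp6* to *Etv5* was 1.19 in PF, 1.90 in COR, 2.11 in SAG and 2.57 in GP, so *Dusp6* was proportionally lower in PF than *Etv5* was. *Etv4*, of the same ETS group (mm9 chromosome 11, 101631056 to 101646685), stood at 0.401 FPKM in PF, 1.54 in COR, 0.249 in SAG and 2.66 in GP. Here SAG was lower still than PF, and *Etv4* was left out of PF vs SAG since it was under 1 FPKM in both. The log2 ratio of *Etv4* was -0.86 in PF against COR and 1.03 in COR against SAG, so *Etv4* and *Etv5* differed in their order across the sutures.

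The Sprouty genes, inhibitors of receptor tyrosine kinase signaling, were not low in PF as listed, though *Spry1* was marginally below both other sutures after GC correction. *Spry4* (mm9 chromosome 18, 38745922 to 38760922) stood at 5.24 FPKM in PF, 1.32 in COR, 1.43 in SAG and 5.34 in GP. PF and GP were level and stood above the other 2 sutures. The log2 ratio was 1.42 in PF against COR, 1.36 against SAG and -0.023 against GP. *Spry2* (mm9 chromosome 14, 106291166 to 106296036) stood at 2.43 FPKM in PF, 0.467 in COR, 1.20 in SAG and 1.94 in GP. It was the only member with its highest level in PF, with log2 ratios of 1.22 against COR and 0.64 against SAG. About 33 fragments lay behind the COR value of *Spry2* and 87 behind that of PF. *Spry1* (mm9 chromosome 3, 37538869 to 37543520) stood at 12.5 FPKM in PF, 10.5 in COR, 8.99 in SAG and 46.7 in GP. Its 3 suture levels lay close together and GP stood apart. The log2 ratio of *Spry1* in PF was 0.23 against COR and 0.43 against SAG, which turned to -0.016 and -0.032 after the correction for GC content. It was -1.82, -2.25 and -2.05 for PF, SAG and COR vs GP.

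The quotient of *Dusp6* to *Spry4* within a library was 0.431 in PF, 12.5 in COR, 17.3 in SAG and 4.57 in GP. *Spry4* was thus the more abundant of the pair in PF alone. The quotient of *Dusp6* to *Spry1* was 0.181 in PF, 1.58 in COR, 2.76 in SAG and 0.523 in GP, and that of *Etv5* to *Spry4* was 0.362, 6.59, 8.22 and 1.78. In all 3 quotients PF was the lowest library and GP the next.

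The Spred genes, whose products restrain RAS with neurofibromin, were lowest in PF as listed, by smaller amounts than *Dusp6*. *Spred1* was, however, level in PF and SAG when taken relative to *Gapdh*. *Spred1* (mm9 chromosome 2, 116947110 to 117008015) stood at 8.11 FPKM in PF, 14.5 in COR, 11.5 in SAG and 14.3 in GP. *Spred2* (mm9 chromosome 11, 19824378 to 19924029) stood at 0.499 FPKM in PF, 2.07 in COR, 1.52 in SAG and 3.06 in GP. For both genes PF was followed by SAG, and for *Spred1* COR and GP were level. The log2 ratio of *Spred1* was -0.46 for PF vs SAG, 0.022 relative to *Gapdh*, a scaling that moved the median ratio of all genes by up to 0.49, and -0.77 for PF vs COR. That of *Spred2* was -1.03 in PF against COR, -0.75 against SAG and -1.44 against GP. As listed, the *Spred2* level was 4.14-fold higher in COR, 3.05-fold higher in SAG and 6.14-fold higher in GP than in PF. No member overlaps another annotated gene on mm9, and none was listed at 0 in any library.

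**Figure D1:**
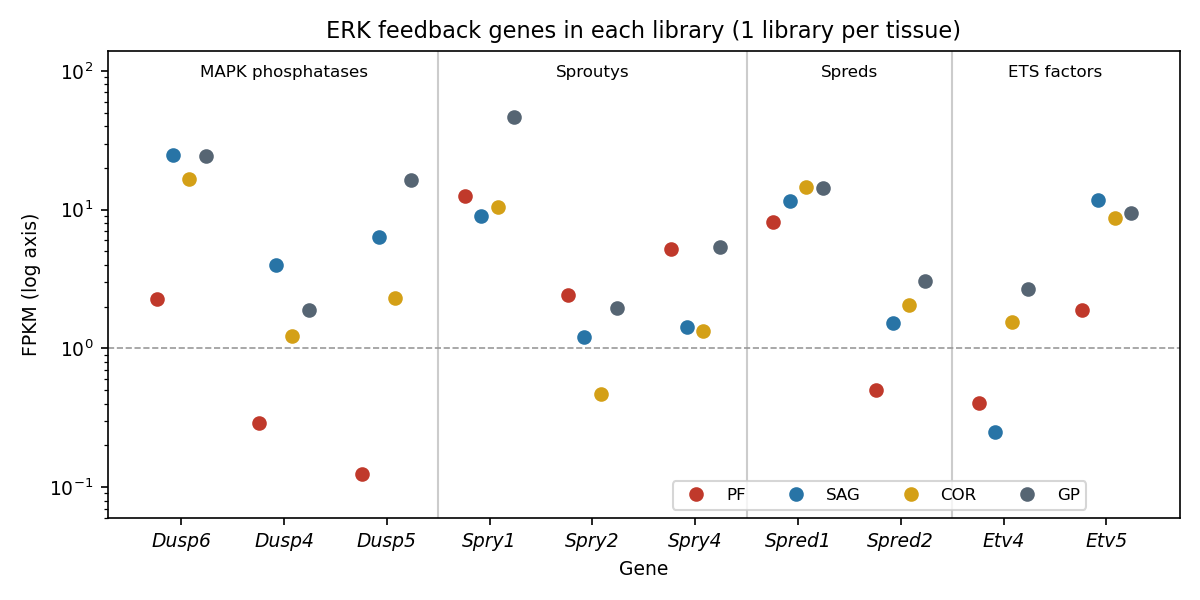
Level of each of the 10 genes in FPKM on a log axis, grouped by family, with 1 point per library (PF, SAG, COR, GP), no error bar since there is 1 library per tissue, and a dashed line at 1 FPKM. PF is the lowest point for *Dusp6*, *Dusp4*, *Dusp5*, *Spred1*, *Spred2* and *Etv5*, whereas PF and GP lie above SAG and COR for the 3 Sprouty genes as listed, for *Spry1* not after GC correction.

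Counted at 3-fold, 4 of the 9 members compared were lower in PF than in SAG (*Dusp6*, *Dusp4*, *Dusp5* and *Etv5*), as were 9.04% of all 13490 genes compared, and 0 were higher, with 6.64% of all genes higher. *Dusp4* and *Dusp5* were compared only through their SAG level, being under 1 FPKM in PF, and with 1 FPKM required in both libraries the count was 2 of 6. Since the set was chosen from *Dusp6* in this same comparison, nothing is read from the count against its background. Against COR, 2 of 10 members were lower in PF (*Dusp6* and *Etv5*; 4.87% of 12853 genes) and 0 were higher (6.81%), while a pseudocount of 0.1 in place of 1 gave 6 lower and 2 higher. Between the patent sutures, 0 of 10 were lower in COR than in SAG (6.15% of 12720 genes) and 0 were higher (3.11%). At 3-fold on this scale the members counted between sutures were phosphatase and ETS genes. Without the added 1, *Spry4* was 3.66-fold higher in PF than in SAG and 3.96-fold higher than in COR. *Spry2* was then 5.20-fold higher in PF than in COR. In the other direction, *Spred2* was 3.05-fold higher in SAG and 4.14-fold higher in COR than in PF. *Dusp4*, *Dusp5* and *Etv4* were 4.28-fold, 18.7-fold and 3.86-fold higher in COR than in PF.

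At 2-fold, 4 members were lower in PF than in SAG (18.5% of all genes) and 1, *Spry4*, was higher (16.2%). Against COR, 4 were lower in PF, *Dusp6*, *Dusp5*, *Spred2* and *Etv5* (12.8%), and 2 were higher, *Spry2* and *Spry4* (16.6%). In COR vs SAG, 2 were lower in COR, *Dusp4* and *Dusp5* (12.5%), and 1, *Etv4*, was higher (7.6%). By any amount, 6 of 9 were lower in PF than in SAG (49% of all genes), 7 of 10 lower in PF than in COR (47.7%) and 6 of 10 lower in COR than in SAG (51.4%). The median log2 ratio of the members was -0.75 for PF vs SAG, where that of all genes was 0.025, and -0.014 among the 6 members at 1 FPKM or more in both libraries. It was -0.83 for PF vs COR, where that of all genes was 0.049. For COR vs SAG it was -0.23, with -0.020 over all genes, and it turned to 0.28 under quantile normalization. These comparisons share libraries, PF being in 3 of the 6 pairs, and are not independent of each other.

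Relative to the growth plate, PF was again the library with most members below at 3-fold, while by any amount PF and COR were equal. At 3-fold, 4 of 10 were lower in PF than in GP, *Dusp6*, *Dusp5*, *Spry1* and *Etv5* (6.24% of all 13101 genes compared), and 0 were higher (5.72%). *Dusp4*, *Dusp5*, *Spred2* and *Etv4* were compared only through their GP level, being under 1 FPKM in PF. With 1 FPKM required in both libraries 6 members remained. Since the set was chosen from *Dusp6* being low in PF, nothing is read from these counts against their background. One member of 10 was lower in SAG than in GP, namely *Spry1* (3.86%), and 0 were higher (4.8%). Of the 10, 2 were lower in COR than in GP, *Dusp5* and *Spry1* (3.2%), and 0 were higher (1.2%). *Spry1* was the member past 3-fold below GP in all 3 sutures, while *Dusp6* and *Etv5* were past it in PF alone, with log2 ratios of 0.02 and 0.28 for SAG vs GP and -0.53 and -0.11 for COR vs GP. Relative to *Gapdh*, *Spry1* (-1.38) and *Etv5* (-1.51) fell short of 3-fold for PF vs GP. By any amount, 9 of 10 were lower in PF (48.7% of all genes), 7 of 10 in SAG (47.9%) and 9 of 10 in COR (48%) than in GP. The median log2 ratio to GP was -1.41 for PF, -0.55 for SAG and -0.53 for COR, with 0.027, 0.027 and 0.018 over all genes.

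**Figure D2:**
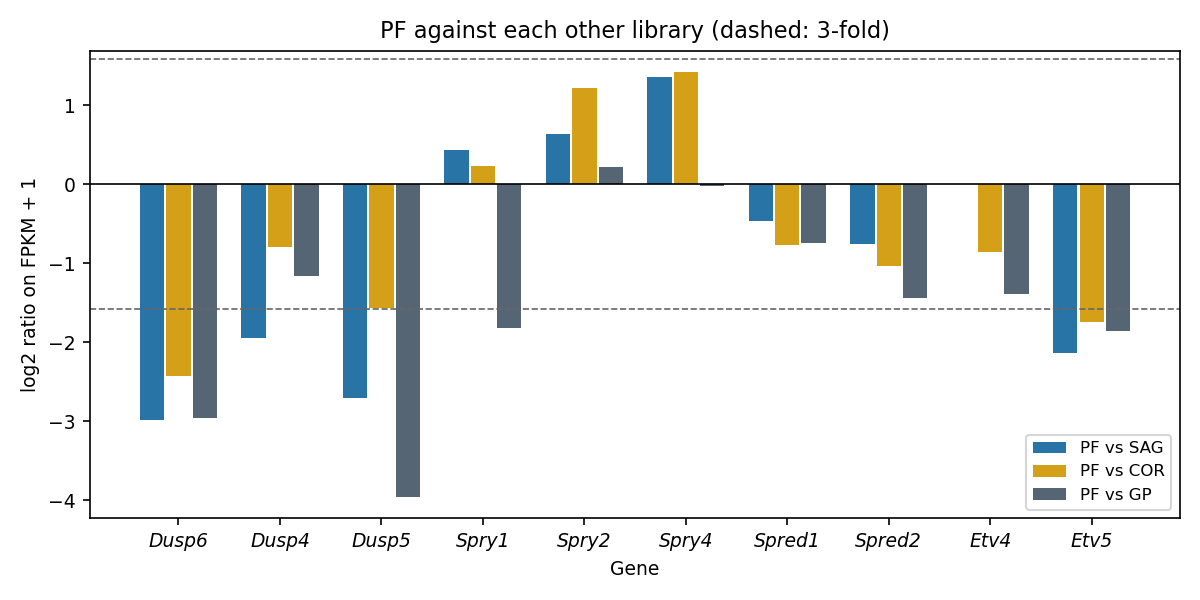
Log2 ratio on FPKM + 1 of each gene in PF against SAG, COR and GP, 1 bar per comparison drawn from 0, with dashed lines at 3-fold and bars below 0 for genes lower in PF. *Etv4* has no bar against SAG because it was under 1 FPKM in both libraries, and the ratios run from -3.96 for *Dusp5* against GP to 1.42 for *Spry4* against COR.

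Across the 4 libraries, PF was the lowest for 6 of 10 members, as it was for 34.3% of the 13998 genes with at least 1 FPKM in 1 library. GP was the highest for 5 of 10, *Dusp5*, *Spry1*, *Spry4*, *Spred2* and *Etv4* (16.4% of all genes). PF was at least 3-fold below each of the other 3 libraries for 2 of 10, *Dusp6* and *Etv5* (2.09% of all genes, or 293 genes). PF and GP were both above SAG and COR for 3 of 10, which were the 3 Sprouty genes as listed, *Spry1* no longer after GC correction (13%). On this scale the Spreds, lowest in PF as listed, were not past 3-fold in any PF comparison. With a pseudocount of 0.1, *Spred2* was past it against COR (-1.86) and GP (-2.40). Relative to *Gapdh*, *Etv5* fell short of 3-fold against GP (-1.51). *Dusp5*, at about 5 fragments in PF, was past 3-fold against COR, SAG and GP after GC correction (-1.81, -3.18 and -4.32). The same held for *Dusp5* with quantile normalization and with a pseudocount of 0.1. *Dusp6* stayed past 3-fold against each library in all of these settings.

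**Figure D3:**
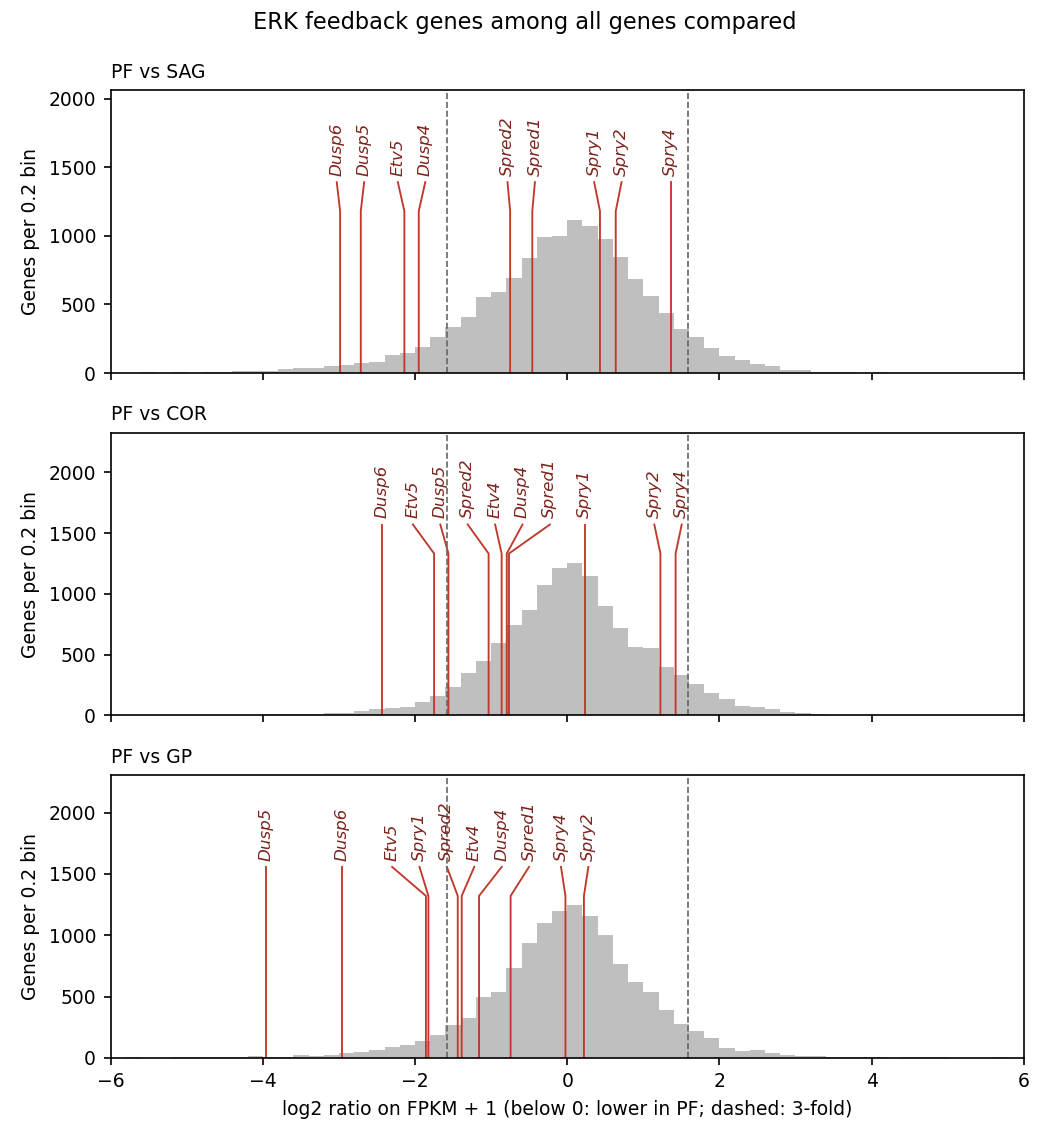
Number of genes per bin of 0.2 in the log2 ratio on FPKM + 1 for PF vs SAG, PF vs COR and PF vs GP, with red lines at the members and dashed lines at 3-fold. *Dusp6* lies at -2.98, -2.43 and -2.96, the Sprouty genes lie at 0.43 to 1.36 in the first panel and 0.23 to 1.42 in the next, and 4, 5 and 5 genes fall beyond the axis limits of 6 in either direction.

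Summed by family, the 3 phosphatase genes came to 2.67 FPKM in PF, 20.1 in COR, 35.2 in SAG and 42.7 in GP. The 3 Sprouty genes came to 20.1 FPKM in PF, 12.3 in COR, 11.6 in SAG and 53.9 in GP. The phosphatase sum was dominated by *Dusp6* and the Sprouty sum by *Spry1*. The 2 Spred genes came to 8.61, 16.6, 13.0 and 17.3 FPKM in the same order, and the 2 ETS genes to 2.30, 10.3, 12.0 and 12.1 FPKM. Of the summed FPKM of all 10 members, the phosphatases made up 7.93% in PF, 34.0% in COR, 48.9% in SAG and 33.9% in GP, whereas the Sproutys made up 59.7%, 20.7%, 16.2% and 42.8%. The sum itself was 33.7 FPKM in PF, 59.2 in COR, 71.8 in SAG and 126 in GP. PF therefore had both the smallest summed level of the 10 genes and the largest share of it in Sproutys.

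Likeness to *Dusp6* was measured as the Euclidean distance between mean-centred log2(FPKM + 1) values over the 4 libraries, where a smaller distance is a closer profile, among 9801 other genes with at least 5 FPKM in 1 library. With 4 points a profile is a description only. *Etv5* was the nearest member at 0.82, with 122 genes (1.24%) nearer, followed by *Dusp5* at 1.35 (4.61% nearer) and *Spred1* at 1.95 (16.4% nearer). *Spry1*, at 2.65, had 54.2% of the genes nearer to *Dusp6* than itself, and *Spry4*, at 3.37, had 86.4%. *Dusp4*, *Spred2*, *Etv4* and *Spry2* stayed under 5 FPKM in every library and lay at 1.41, 1.62, 2.23 and 3.04. The 5 genes nearest to *Dusp6* outside the lists were *Ankra2*, *Gmnn*, *2700097O09Rik*, *Gpnmb* and *Qrsl1*, at 0.103 to 0.258. *Gmnn*, the DNA replication licensing inhibitor geminin, was at 1.11 FPKM in PF, 10.9 in COR, 16.4 in SAG and 14.3 in GP, and *Ankra2* was at 1.92, 14.7, 20.7 and 20.0 FPKM.

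**Figure D4:**
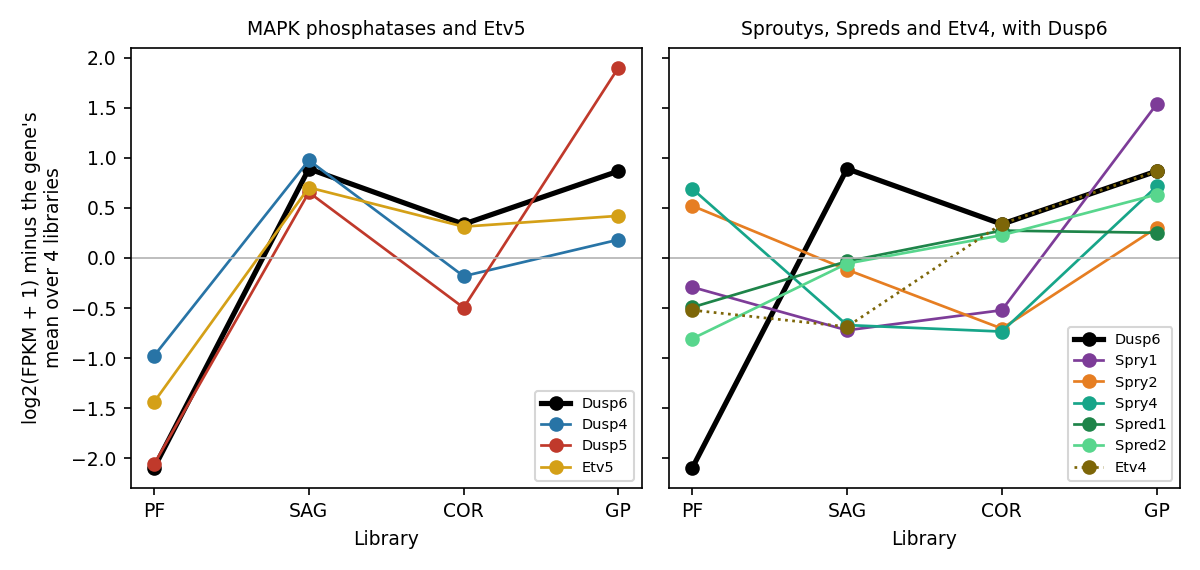
Log2(FPKM + 1) minus the mean of each gene over the 4 libraries, for the phosphatases and *Etv5* (left) and for the Sproutys, Spreds and *Etv4* (right), with *Dusp6* in black in both panels and lines joining the points of a gene. *Etv5* runs closest to *Dusp6*, at a distance of 0.82, and *Spry4* farthest, at 3.37.

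Genes outside the set were counted by list, against the same shares and medians of all genes as above. Of 10 paralogs of the members, 8 were compared in PF vs SAG, with 1 past 3-fold lower, 1 higher and a median log2 ratio of -0.48, and 6 in PF vs COR, with 1 lower, 1 higher and a median of -0.72. The higher gene was *Spry3* in both, named after its values were seen. *Dusp1*, an immediate early phosphatase of p38, JNK and ERK, was at 41.7 FPKM in PF, 75.6 in COR, 483 in SAG and 155 in GP. It was lowest in PF, as *Dusp6* was, but its COR level was nearer to PF than to SAG. *Dusp7*, a cytoplasmic ERK phosphatase close to *Dusp6*, was at 19.8 FPKM in PF, 30.6 in COR, 8.08 in SAG and 22.8 in GP, and so was lowest in SAG. *Dusp10*, a phosphatase of p38 and JNK, was at 1.10 FPKM in PF, 5.85 in COR, 3.52 in SAG and 4.91 in GP.

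Of 12 other ERK-responsive genes, 10 were compared in PF vs SAG, with 5 lower in PF, 1 higher and a median log2 ratio of -1.64, and 11 in PF vs COR, with 2 lower, *Epha2* and *Fosl1* (the latter named after its values were seen), 0 higher and a median of -0.57. In COR vs SAG 5 of 11 were lower in COR and 1 higher. The 5 genes were *Fos*, *Egr1*, *Ier3*, *Phlda1* and *Errfi1* in both comparisons with SAG. *Fos*, an AP-1 subunit, was at 115 FPKM in PF, 124 in COR, 2298 in SAG and 327 in GP, and *Egr1*, an immediate early zinc finger factor, at 63.5, 95.0, 1279 and 145 FPKM. *Ier3*, an immediate early gene of cell survival, was at 25.6 FPKM in PF, 59.7 in COR, 364 in SAG and 113 in GP, and *Phlda1*, a gene induced by growth factors, at 9.21, 10.7, 64.4 and 30.6 FPKM. *Errfi1*, which encodes an inhibitor of the EGF receptor, was at 21.5 FPKM in PF, 28.1 in COR, 106 in SAG and 20.6 in GP. *Fos* was nearly level in PF and COR, where *Dusp6* differed 7.34-fold. *Ccnd1*, the G1 cyclin D1, went the other way in SAG, at 17.3 FPKM in PF, 41.4 in COR, 4.37 in SAG and 43.3 in GP. *Epha2*, an ephrin receptor gene, was at 0.201 FPKM in PF, 5.98 in COR, 1.44 in SAG and 3.99 in GP.

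The genes of the cascade itself were counted in the same way. Of 23 core cascade genes, 21 were compared in PF vs SAG, with 1 lower in PF, *Frs3*, which is listed at 0 there, 0 higher and a median log2 ratio of -0.25. Of all genes in PF vs SAG, 9.04% were lower and 6.64% higher. In PF vs COR 1 of 21 was lower, the same gene, with 4.87% of all genes lower, and the median was -0.30. In COR vs SAG 0 of 20 were past 3-fold, with 6.15% of all genes lower and 3.11% higher. *Mapk3*, the gene of ERK1, was at 33.8 FPKM in PF, 22.3 in COR, 21.7 in SAG and 33.4 in GP, and *Ptpn11*, the gene of the phosphatase SHP2, at 15.0, 12.3, 12.5 and 13.1 FPKM. PF was thus the highest library for *Mapk3* and *Ptpn11*, in each case by less than 2-fold. Transcript levels carry no information on phosphorylation of these proteins.

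Of 11 receptor genes, 2 were past 3-fold lower in PF than in SAG, *Fgfr3* and *Kit* (9.04% of all genes). *Pdgfrb* was the 1 higher (6.64%), and the median log2 ratio was 0.37. In PF vs COR 0 of 10 were past 3-fold, with 4.87% of all genes lower and 6.81% higher. In COR vs SAG 2 of 10 were lower in COR, *Kit* and *Fgfr4* (6.15%), and 0 were higher (3.11%). *Fgfr3*, an FGF receptor of cartilage and bone, was at 13.5 FPKM in PF, 41.4 in COR, 48.6 in SAG and 33.8 in GP, while *Fgfr1* was at 34.2, 44.2, 24.0 and 36.7 FPKM and *Fgfr2* at 46.8, 94.6, 48.8 and 46.3 FPKM. *Fgfr3* thus had the library order of *Dusp6* among the sutures. *Kit*, the receptor of stem cell factor, was at 0.0439 FPKM in PF, 0.487 in COR, 11.7 in SAG and 1.05 in GP, *Pdgfrb*, a receptor of platelet-derived growth factor, at 48.3, 26.7, 13.8 and 20.5 FPKM, and *Fgfr4* at 2.43, 0.499, 5.20 and 0.233 FPKM. Of 6 FGF ligand genes, 4 were compared in PF vs SAG and 5 in PF vs COR. In each, 1 was past 3-fold higher in PF, *Fgf18* (6.64% and 6.81% of all genes), and 0 were lower. *Fgf18* was at 24.4 FPKM in PF, 5.06 in COR, 4.61 in SAG and 61.4 in GP. As for *Spry4*, PF and GP stood above SAG and COR.

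Other features of the libraries moved with the same contrasts, and their part in the results was not tested. By the step between low values, the PF library held 44.0% of the depth of SAG, if FPKM was scaled in proportion to fragments. Of the sorting antigens, *Itgav* (CD51) was at 6.20 to 15.0 FPKM and *Cd200* at 23.5 to 62.6 FPKM, and of the 5 genes of antigens sorted as negative 1 to 2 reached 1 FPKM. All 6 chondrocyte markers were detected at 1 FPKM or more in every library, with summed levels of 109 FPKM in PF, 107 in COR, 3321 in SAG and 2264 in GP. The sums of PF and COR were level. All 6 osteoblast markers were likewise detected throughout, with sums of 2305, 11055, 820 and 8021 FPKM. Of 6 choroid plexus markers, 6 reached 1 FPKM in PF and SAG, 3 in COR and 2 in GP, with sums of 507, 200.4, 5357 and 51.8 FPKM. The other sums, in the order PF, COR, SAG and GP, were 33.8, 3.78, 17.6 and 11.6 FPKM for endothelium with 3, 1, 1 and 1 of 6 at 1 FPKM or more, and 34.4, 5.44, 10.8 and 8.08 FPKM for blood with 2, 1, 2 and 1 of 6. *Tyrobp* was listed at 0 in all libraries and *Cd3e* in PF, COR and GP. Neuron markers summed to 80.7, 22.1, 14.8 and 17.1 FPKM (2, 2, 5 and 2 of 6, *Snap25* at 0 outside SAG and *Rbfox3* at 0 in GP) and glia markers to 123, 27.0, 19.6 and 137 FPKM (3, 3, 4 and 3 of 6, *Aqp4* and *Olig2* at 0 outside SAG). In PF single genes made up most of several of the marker sums. They were *Gap43* for neurons (78.8 FPKM), *Esam* for endothelium (29.5 FPKM), *Lyz2* for blood (30.2 FPKM) and *Mbp* for glia (88.1 FPKM). The same held for *Ttr* in choroid plexus (465 FPKM), *Spp1* in osteoblasts (1649 FPKM) and *Acta2* in muscle (530 FPKM). The neuron markers *Snap25*, *Syt1* and *Rbfox3* were highest in SAG. Meninges markers summed to 210, 64.5, 163 and 203 FPKM (5, 5, 5 and 3 of 6, *Slc22a6* at 0 throughout and *Zic1* in GP) and muscle markers to 778, 302, 55.3 and 564 FPKM (4, 4, 2 and 4 of 6, *Myod1* at 0 throughout and *Ckm* outside PF). The muscle, glia and meninges sums were highest in PF and GP, as the Sprouty sums were. The meninges sum of GP was mostly *Crabp2*, at 177 FPKM there against 67.7 in PF. *Foxc1*, *Aldh1a2*, *Ptgds* and *Zic1* were all lower in GP than in PF, with *Aldh1a2* at 1.66 against 62.1 FPKM.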

How the data were processed

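RNA-seq of FACS-sorted CD51+;CD200+ cells gave 1 library per tissue (GP, COR, SAG, PF). Per the study's methods and the submitters' processing notes, the authors aligned paired-end reads to mm9 with STAR 2.5.1b and estimated expression with Cuffdiff of Cufflinks 2.2.1. The values deposited by the authors are FPKM per gene symbol, and how Cuffdiff scaled the libraries is not given in the sources used here. Sequencing depth is not given either. It was compared through the step of FPKM multiplied by transcript length worth 1 fragment, in 4811 genes with a single transcript, where 74.6% to 80.4% of low values lay within 0.2 of 1 to 3 whole steps. Fragment numbers are therefore approximate and carry no interval.

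Ratios were differences of log2(FPKM + 1), for genes at 1 FPKM or more in at least 1 library compared, and 3-fold was counted. There were no replicates and no test was made. Samples were grouped by their titles. The members and lists were chosen with earlier results of these data known. The genes named were all members, the genes of the paralog, ERK-responsive, cascade, receptor and FGF ligand lists past 3-fold between sutures with 5 FPKM or more in the higher library, *Ptpn11*, *Mapk3*, *Fgfr1*, *Fgfr2* and *Fgfr3*, and the 5 genes nearest to *Dusp6*. A further gene of this rule is not reported here. *Frs3*, the single cell type markers named and the genes of the closing section were chosen after their values were seen. Gene positions are from GENCODE on mm9, and promoters from RefSeq on GRCm38.p6, in which *Dusp4*, *Spry4* and *Etv4* had no entry. Single-cell libraries were not analysed here.

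Alternatives were a pseudocount of 0.1, other filters, quantile and median scaling, values relative to *Gapdh*, a loess correction for GC content (span 0.3) and 2-fold. The steps were tested on data simulated from genes at 5 FPKM or more in both SAG and COR. Genes under that level in either, which several members are, were not covered. Computations were run in Python 3.11.15 (pandas 2.3.3, numpy 2.4.6, matplotlib 3.10.9, statsmodels 0.14.6).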

Additional observations from a re-analysis of the deposited data

How the results depend on the processing

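No paired analysis was possible because no tissue has more than 1 library. For the same reason no library could be left out within a tissue. The count of members past 3-fold lower in PF than in SAG, 4 in the report, was 2 with at least 1 FPKM required in both libraries, where 6 members remained. It was 3 with 5 FPKM required in at least 1 library, where 6 members likewise remained. The count higher in PF than in SAG, 0 in the report, was 1 with a pseudocount of 0.1, with quantile normalization, relative to *Gapdh* and at 2-fold. Against COR, the count lower in PF, 2 in the report, was 6 with a pseudocount of 0.1 and 4 at 2-fold. It was 3 with quantile normalization and 3 after GC correction. The count higher, 0 in the report, was 2 with a pseudocount of 0.1, 1 relative to *Gapdh* and 2 at 2-fold. In COR vs SAG, with 0 in the report, 1 member was lower with a pseudocount of 0.1 and 2 at 2-fold, and 1 was higher in each of these settings. The median for PF vs COR was -1.75 with a pseudocount of 0.1, that for COR vs SAG turned to 0.28 under quantile normalization, and that for PF vs GP was -2.31 with a pseudocount of 0.1, -1.84 among the 6 members at 5 FPKM or more and -1.67 after GC correction. The median for PF vs SAG ranged from -1.44 to -0.014. *Dusp6* stayed past 3-fold in all alternatives for PF vs SAG (-3.40 to -2.55) and PF vs COR (-2.82 to -2.27), as did *Etv5* (-2.57 to -1.73 and -2.15 to -1.60). *Spry4* passed 3-fold for PF vs SAG with a pseudocount of 0.1 (1.80), relative to *Gapdh* (1.76) and with quantile normalization (1.60), and for PF vs COR with a pseudocount of 0.1 (1.91) and relative to *Gapdh* (1.66). Of 430 values of single members, 395 kept both their direction and their side of 3-fold, 23 moved past it in the same direction and 2 fell short of it, the PF ratios to GP of *Spry1* (-1.38) and *Etv5* (-1.51) relative to *Gapdh*. In the other 10 the sign changed, with no value past 3-fold. The alternatives for single members against GP were chosen after seeing the data. Scaling to *Gapdh* moved the median ratio of all genes by up to 0.49, and the other settings by under 0.1. The cause of these changes was not tested. The members with fewest fragments in PF were *Dusp5*, *Dusp4* and *Etv4*, at about 5, 14 and 16.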

Other observations

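A few genes outside the rule for naming were singled out after their values were seen. *Spry3*, the fourth Sprouty paralog, was at 2.98 FPKM in PF, 0.00675 in COR, 0.0857 in SAG and 0.245 in GP, with log2 ratios of 1.98 in PF against COR and 1.87 against SAG. It was thus past 3-fold higher in PF than in both other sutures, on the same side as *Spry2* and *Spry4*. *Il17rd*, which encodes the FGF signaling inhibitor Sef, was at 0.0139 FPKM in PF, 0.223 in COR, 0.357 in SAG and 0.821 in GP, under 1 FPKM in every library. *Frs3*, which encodes an adaptor of FGF receptors, was listed at 0 in PF, against 2.02 FPKM in COR, 4.51 in SAG and 1.99 in GP. *Egfr*, the receptor gene of epidermal growth factor, was at 31.4 FPKM in PF, 13.4 in COR, 13.2 in SAG and 21.7 in GP, so that PF and GP again lay above SAG and COR. *Fosl1*, which encodes an AP-1 subunit, was listed at 0 in PF, against 2.64 FPKM in COR, 0.297 in SAG and 1.42 in GP.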
